A study of Rattus norvegicus with 12 samples.

Results

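The blood response of rats to lipopolysaccharide (LPS) was compared between 6 h and 2 h, across 3939 genes. These are named, with 1 symbol each, by 4190 of the 7200 probes of a 2-colour array, and each gene entered as the mean of its probes. The 12 arrays hold RNA from 6 rats given LPS, rats 1, 2 and 3 at 2 h and rats 2, 4 and 6 at 6 h, so n = 3 at each time. Every rat was hybridised on 2 arrays, called fluor and flip in the labels, with the channels of rat and control exchanged between them. The control was a pool of RNA that differed by time, 1 for the 2 h rats and 1 for the 6 h rats. Blood is named by the series title only. Not given in the sources used here are the strain, sex, age, LPS dose and route, the dyes and the make-up of the pools. Whether rat 2 is 1 animal sampled at both times is not given either, and the 6 rats were treated as different.

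LPS is the outer-membrane glycolipid of Gram-negative bacteria. It is sensed by Toll-like receptor 4 with CD14 and MD-2, mainly on monocytes, macrophages and neutrophils. Signalling through MyD88 activates NF-kappaB and the MAP kinases and switches on early genes such as those of the cytokines interleukin-1 beta and tumour necrosis factor. Signalling through TRIF leads to interferon beta, which acts back on cells and turns on interferon-stimulated genes somewhat later. In blood the same stimulus is also known to change which cells circulate, since neutrophils leave the marrow and lymphocytes leave the bloodstream. In bulk blood RNA, fewer cells of a type and less RNA per cell cannot be told apart.

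The values are deposited log2 ratios of a rat to the pool of its time. A value of 1 is a 2-fold excess over the pool, and 0 is no difference from it. The 2 arrays of a rat were averaged, and 6 h minus 2 h was tested with limma across all 3939 genes. A gene was called where its Benjamini-Hochberg adjusted p was under 0.05. Because each time has a pool of its own, a difference between the times also holds any difference between the pools, and each pool is 1 sample whose spread was not measured. The labels tell the rats apart by number alone, so p-values measure the spread between these 6 samples.

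The dyes are not given, so the direction of the ratios is likely and not settled. Over the 3939 genes the 6 h minus 2 h difference on the 6 fluor arrays had a Pearson correlation of 0.44 with that on the 6 flip arrays. Over all 7200 probes it was 0.36, and over the 6856 probes without a repeated value it was 0.416. The points share their RNA samples and are not independent. All 3 correlations lie above 0, as ratios already turned one way would give. Positive values were read as LPS over pool because Il1b, a textbook LPS-induced gene, lay between 1.67 and 4.23 on all 12 arrays. Array medians ran from -0.020 to 0.0083 and array standard deviations from 0.27 to 0.48. On each array 242 to 298 probes held 1 identical value. Of the 3939 genes, 39 have such a probe. Of these 1 was called, Ap2s1, which is kept among the calls, and the differences of the others were not read as changes.

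Between the times 20 of 3939 genes (0.508%) passed the threshold, 13 of them higher at 6 h (0.33%) and 7 lower (0.178%). Of the called genes, the cytokine gene Il1b and the protease inhibitor gene Spink1l fell most. The antioxidant gene Prdx5 and the interferon-induced GTPase gene Gbp2 rose most. These ranks hold for the deposited direction. With the flip arrays' sign turned the differences were -0.080 for Il1b, 0.17 for Spink1l, 0.075 for Prdx5 and -0.15 for Gbp2, and 0 genes were called. All 20 had 3 rats of one time that did not overlap with the 3 of the other, a pattern held by 853 of the 3939 genes (21.7%). In 13 of the 20 the single arrays of the times did not overlap either, against 69 genes (1.75%) over the whole table. The difference had the same sign on the fluor and the flip arrays in all 20, and the share over all genes is not given here. The calls were made from these same values, so these patterns describe the 20 genes and add no support. The median difference over all genes was -0.0007, and the middle 50% of genes lay between -0.055 and 0.059. At least 2-fold differences were held by 7 genes, of which 4 were called. Across the 3939 genes the mean ratios at 2 h and at 6 h had a Pearson correlation of 0.744. Genes share arrays and are not independent replicates.

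**Figure D1:**
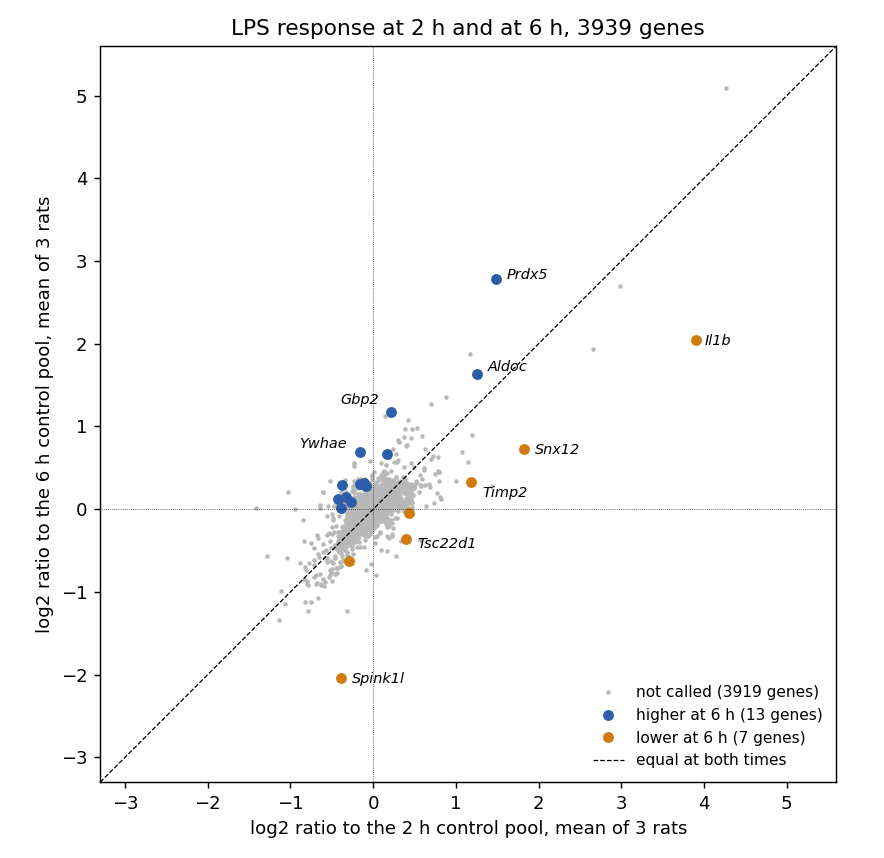
Mean log2 ratio to the control pool of 3 rats at 2 h (horizontal axis) and of 3 rats at 6 h (vertical axis) for 3939 genes, 1 point each. The 13 genes called higher at 6 h lie above the dashed line of equal ratios and the 7 called lower lie below it.

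The number of calls depended on single rats. Leaving out 6 h rat 2 gave 2 calls, 6 h rat 6 gave 4, 2 h rat 1 gave 5 and 2 h rat 2 gave 7. Leaving out 6 h rat 4 gave 16 calls and 2 h rat 3 gave 31. Timp2 and AKR1C3l1 passed without each of the 6 rats, and Il1b passed without 5 of them. Tsc22d1 was called without 4 of the rats in turn, Snx12 and Gbp2 without 3, and Spink1l, Rcn1, Ybx1, Herc6 and Car4 without 2. Aldoc, Tmbim4, Rpp30 and Ywhae were called without 1 of them, and the other 5 genes in none of these fits. The fluor arrays alone called 4 genes, all among the 20, and the flip arrays alone 5, of which 1 was among the 20. Of the 20 calls 65.0% were higher at 6 h. That share was 42.9% of 14 calls after the arrays were scaled to a common median absolute deviation and 37.5% of 8 after quantile normalization. With neighbouring probes subtracted 8 of 16 were higher. Of those 14, 8 and 16 calls, 7, 6 and 14 were among the 20. At an unadjusted p under 0.05 there were 569 genes (14.4%), 289 of them higher (7.34%) and 280 lower (7.11%). An exact permutation test of 3 against 3 rats on 1 gene cannot go below p = 0.1, so the calls rest on the spread that limma shares across genes.

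**Figure D2:**
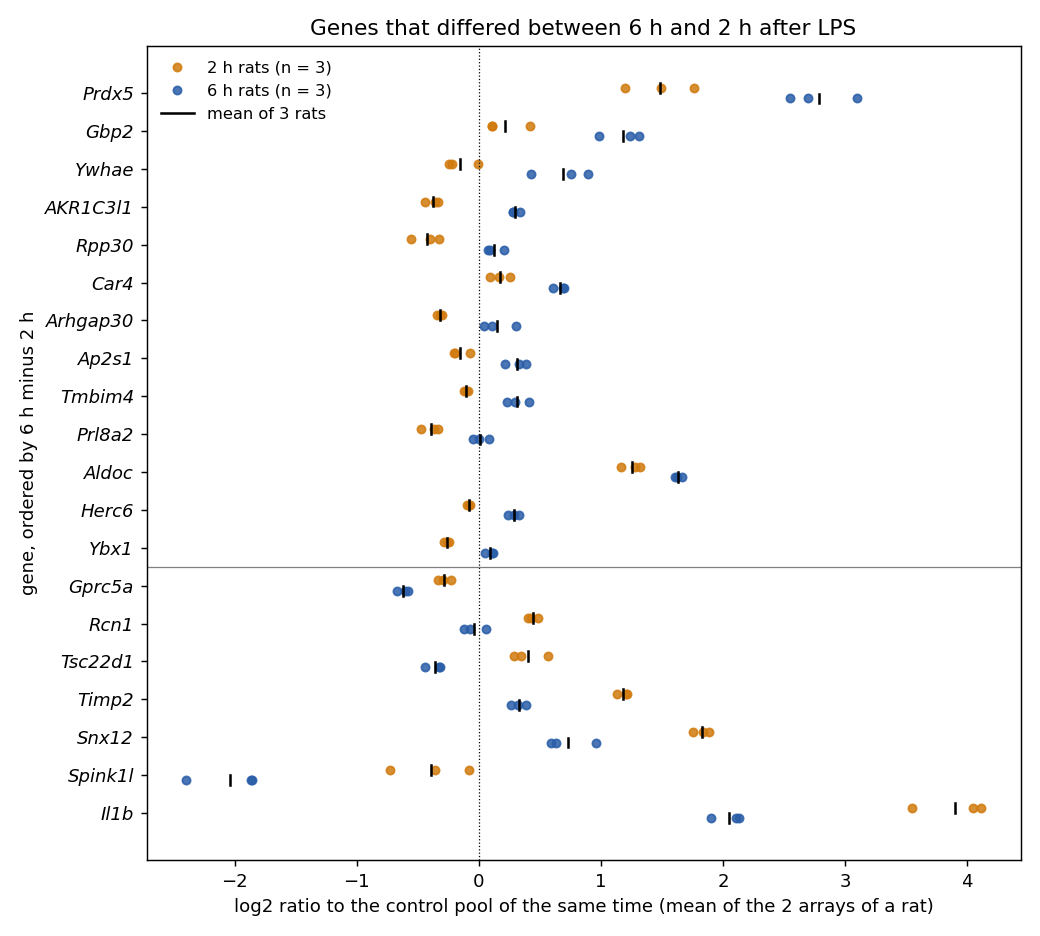
Log2 ratio to the same-time control pool in each of the 6 rats (horizontal axis, mean of a rat's 2 arrays) for the 20 called genes, ordered by 6 h minus 2 h. Points are rats, short bars are means of 3 rats, and the horizontal line parts the 13 higher from the 7 lower genes. In every row the 2 h and 6 h rats stand apart.

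The promoters of Gbp2 and Il1b are shown because Il1b had the largest fall and Gbp2 is a textbook interferon target among the genes that rose. Of the 3939 genes 3254 had a promoter in RefSeq (build GRCr8), among them 18 of the 20 called genes. Each sequence printed holds the 250 bases before the annotated start, on the gene's own strand. Motifs were searched on both strands from 250 bases before to 50 after the start, and capitals mark the matches.
Gbp2 promoter, chr2:234005477-234005726, plus strand: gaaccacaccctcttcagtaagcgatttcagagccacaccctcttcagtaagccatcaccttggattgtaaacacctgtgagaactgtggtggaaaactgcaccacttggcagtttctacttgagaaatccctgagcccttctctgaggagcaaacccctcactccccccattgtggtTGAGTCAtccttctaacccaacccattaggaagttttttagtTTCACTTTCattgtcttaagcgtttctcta
Il1b promoter, chr3:137036582-137036831, minus strand: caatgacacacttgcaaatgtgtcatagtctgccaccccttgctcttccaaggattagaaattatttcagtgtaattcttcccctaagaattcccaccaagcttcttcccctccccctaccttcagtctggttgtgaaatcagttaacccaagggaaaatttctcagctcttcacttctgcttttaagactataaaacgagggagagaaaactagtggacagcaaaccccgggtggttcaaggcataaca
In Gbp2 the run TTCACTTTC, 30 bases before the start, is a match on the opposite strand to the ISRE core, searched as GAAANNGAA. The ISRE is the element bound by factors that type I interferon activates. The run TGAGTCA, 72 bases before the start, is a match on the opposite strand to the AP-1 motif, searched as TGACTCA. The Il1b window matched none of the motifs searched, which says only that those letters are not in it. The ISRE core matched 237 of the 3254 promoters (7.28%), the interferon-gamma element GAS (TTCNNNGAA) 224 (6.88%) and AP-1 125 (3.84%). The cAMP response element CRE (TGACGTCA) matched 89 (2.74%) and the NF-kappaB motif (GGGANTTTC) 37 (1.14%). Of the 12 promoters of genes called higher, 1 held the ISRE core and 1 held AP-1 (both Gbp2), 1 held GAS (Prl8a2), and 0 held CRE or NF-kappaB. Of the 6 promoters of genes called lower, 1 held AP-1 (Rcn1) and 0 held the ISRE core, GAS, CRE or NF-kappaB. A match is a description of letters, not a measured site.

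Il1b encodes interleukin-1 beta, the fever-inducing cytokine that monocytes and neutrophils make soon after LPS. Its log2 ratio was 4.05, 4.11 and 3.54 at 2 h and 2.13, 1.90 and 2.11 at 6 h. All rats were far above the pool, and every 6 h rat lay below every 2 h rat. The means of 3.90 ± 0.31 and 2.04 ± 0.13 (SD, n = 3) are a 14.9-fold and a 4.13-fold excess over the pools. Il1b was 3.62-fold lower at 6 h, a log2 difference of -1.86 ± 0.15 (SE, adjusted p = 0.00735). By orientation the difference was -1.94 (fluor) and -1.78 (flip). Without 6 h rat 2 its adjusted p was 0.0554, and over its alternatives other than the sign-turned flip arrays the adjusted p ran from 0.000203 to 0.124.

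Snx12 and Timp2 followed the same course, high at 2 h and nearer to the pool at 6 h. Snx12 encodes a sorting nexin of the endosome. Its log2 ratios were 1.84, 1.88 and 1.75 at 2 h and 0.63, 0.59 and 0.96 at 6 h, so the 6 h rats were all lower. Snx12 was 2.14-fold lower at 6 h (log2 difference -1.10 ± 0.10, SE, adjusted p = 0.011), with -1.60 on the fluor and -0.59 on the flip arrays. Timp2 encodes an inhibitor of matrix metalloproteinases. Its ratios were 1.21, 1.21 and 1.13 at 2 h and 0.39, 0.27 and 0.32 at 6 h. The rats of a time lay close together, and the difference of -0.86 ± 0.049 (SE, 1.81-fold lower) had the lowest adjusted p of the 3939 genes, 0.00201.

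Spink1l, annotated as a Kazal-type serine protease inhibitor, moved away from the pool. Its log2 ratios were -0.36, -0.082 and -0.73 at 2 h and -1.86, -2.40 and -1.86 at 6 h. Below the pool at both times, it was 4.11-fold below it at 6 h, and the difference was -1.65 ± 0.20 (SE, 3.14-fold lower, adjusted p = 0.0265). Gprc5a, a retinoic acid-induced orphan receptor gene, also went farther below the pool. Its ratios were -0.29, -0.23 and -0.34 at 2 h and -0.61, -0.58 and -0.67 at 6 h (difference -0.33 ± 0.047, SE, adjusted p = 0.0456). The difference was -0.58 on the flip arrays and -0.090 on the fluor arrays, and Gprc5a was not called when any rat was left out.

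Tsc22d1 passed from above to below the pool, and Rcn1 from above the pool to around it. Tsc22d1, a leucine-zipper factor gene first found as a target of TGF-beta, had ratios of 0.29, 0.57 and 0.35 at 2 h and -0.44, -0.32 and -0.32 at 6 h. It was above 0 in every 2 h rat and below 0 in every 6 h rat (difference -0.76 ± 0.079, SE, adjusted p = 0.0225). Rcn1 encodes a calcium-binding protein of the endoplasmic reticulum. Its ratios were 0.40, 0.49 and 0.43 at 2 h and -0.12, 0.061 and -0.069 at 6 h. The 2 h rats were above the pool and the 6 h rats lay around it (difference -0.48 ± 0.058, SE, adjusted p = 0.0265).

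Prdx5 encodes a peroxiredoxin that reduces hydrogen peroxide and peroxynitrite. Its log2 ratio was 1.77, 1.49 and 1.19 at 2 h and 3.10, 2.70 and 2.55 at 6 h. Already above the pool in all rats at 2 h, it was 6.88-fold above it at 6 h. The difference was 1.30 ± 0.18 (SE, 2.46-fold higher, adjusted p = 0.0408), with 1.37 on the fluor and 1.22 on the flip arrays. Prdx5 was not called when any of the 6 rats was left out, where the difference ran from 1.14 to 1.44.

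Gbp2 encodes a guanylate-binding protein, an interferon-induced GTPase that acts on vacuoles holding bacteria. Its ratios were 0.11, 0.42 and 0.11 at 2 h and 1.31, 0.99 and 1.24 at 6 h, so every 6 h rat was higher. Against 0, the 2 h mean of 0.21 ± 0.18 (SD) did not pass (adjusted p = 0.11), while the 6 h mean of 1.18 ± 0.17 did (adjusted p = 0.00021). Gbp2 was 1.96-fold higher at 6 h (difference 0.97 ± 0.11, SE, adjusted p = 0.0265). It was the only called gene with 2 probes, whose differences were 1.12 (adjusted p over all probes 0.0281) and 0.82 (0.132). Without 2 h rat 1, 6 h rat 2 or 6 h rat 6 Gbp2 was not called.

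Herc6 is the rodent gene whose product attaches the interferon-induced modifier ISG15 to proteins. Its ratios were -0.072, -0.083 and -0.10 at 2 h and 0.29, 0.24 and 0.33 at 6 h. The times lay on either side of 0, and the difference was 0.37 ± 0.041 (SE, adjusted p = 0.0244), with 0.37 on the fluor and 0.37 on the flip arrays. Aldoc, the gene of the glycolytic enzyme aldolase C, had ratios of 1.32, 1.28 and 1.17 at 2 h and 1.67, 1.61 and 1.62 at 6 h. High at both times, it rose by a further 0.38 ± 0.052 (SE, adjusted p = 0.0408). With the arrays scaled to a common median absolute deviation the difference was 0.14. Over its alternatives the adjusted p ran from 0.0233 to 0.819, the latter with that scaling, and it was 0.903 with the flip arrays' sign turned. Car4 encodes a membrane-anchored carbonic anhydrase. Its ratios were 0.089, 0.26 and 0.16 at 2 h and 0.61, 0.69 and 0.69 at 6 h, a rise of 0.49 ± 0.056 (SE, adjusted p = 0.0244).

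The other 8 genes called higher were below the pool in all 2 h rats and on average above it at 6 h. AKR1C3l1, an aldo-keto reductase gene, had ratios of -0.33, -0.44 and -0.36 at 2 h and 0.34, 0.28 and 0.28 at 6 h. All 2 h rats lay below 0 and all 6 h rats above it, and the difference of 0.68 ± 0.046 (SE, adjusted p = 0.00307) was called without each rat. By orientation the difference was 0.92 (fluor) and 0.43 (flip), and the flip arrays alone did not call AKR1C3l1 (limma adjusted p = 0.145). The 2 arrays of 2 h rat 3 read -0.80 (fluor) and 0.078 (flip). Ywhae, the gene of the adaptor protein 14-3-3 epsilon, had ratios of -0.0073, -0.24 and -0.22 at 2 h and 0.89, 0.43 and 0.76 at 6 h. Its 6 h rats differed most among these 8 genes, and its difference of 0.85 ± 0.12 (SE) had an adjusted p of 0.0491. Rpp30 encodes a protein of ribonuclease P, which matures tRNAs. Its ratios were -0.32, -0.40 and -0.55 at 2 h and 0.078, 0.087 and 0.21 at 6 h (difference 0.55 ± 0.070, SE, adjusted p = 0.0336). That difference was 0.72 on the fluor and 0.37 on the flip arrays.

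The remaining 5 rose by less. Arhgap30, a GTPase-activating protein gene, went from a mean of -0.32 to 0.15 (difference 0.47 ± 0.069, SE). Ap2s1, the small subunit of the clathrin adaptor AP2, went from -0.16 to 0.31 (0.46 ± 0.061), with its probe at the repeated value on 1 array. Tmbim4, a Golgi protein that limits apoptosis, went from -0.11 to 0.31 (0.42 ± 0.054). Their adjusted p-values were 0.0491, 0.0368 and 0.0336. Prl8a2, a gene of the prolactin family, went from -0.39 to 0.0097 (0.40 ± 0.056, adjusted p = 0.0408). Ybx1, an RNA-binding cold-shock protein gene, went from -0.26 to 0.092 (0.35 ± 0.040, adjusted p = 0.0244). Arhgap30, Ap2s1 and Prl8a2 were not called when any rat was left out. By orientation the difference was 0.62 (fluor) and 0.32 (flip) for Arhgap30, and 0.52 (fluor) and 0.19 (flip) for Ybx1.

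**Figure D3:**
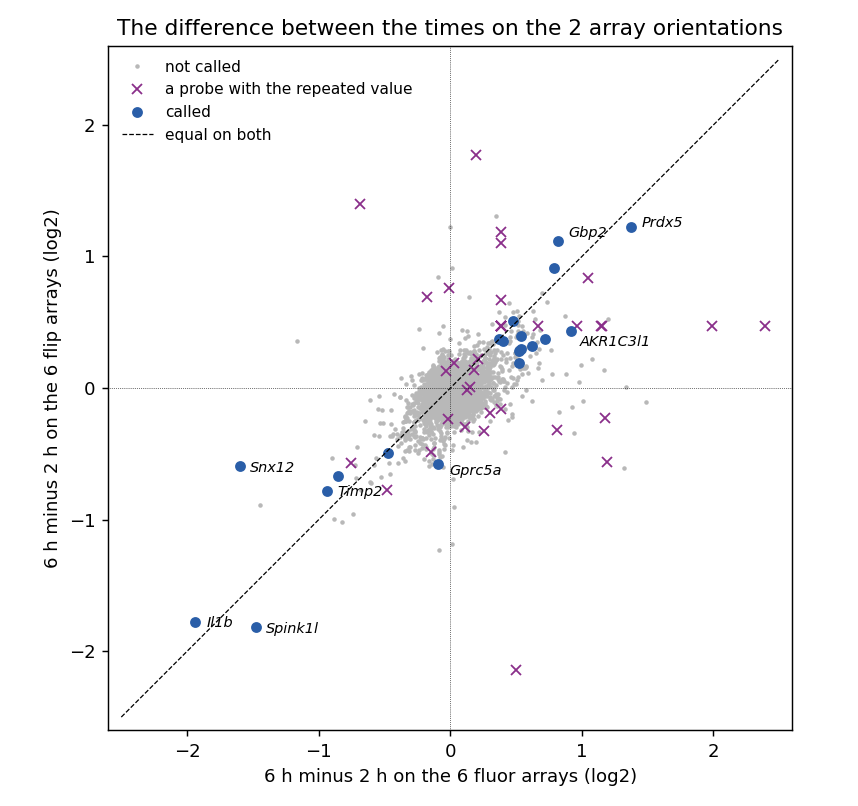
The 6 h minus 2 h difference of the log2 ratio on the 6 fluor arrays (horizontal axis) against that on the 6 flip arrays (vertical axis), 1 point per gene. The 20 called genes lie in the quadrants of equal sign, some of them, such as Snx12, Gprc5a and AKR1C3l1, off the dashed line of equal differences. Of the 39 genes with a probe at the repeated value, Ap2s1 is drawn as a called point and the others as crosses.

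Of the 32 gene lists examined, 501 genes were measured and 6 of these were called, beside 0.508% of all genes. They are Il1b, Timp2, Prdx5, Gbp2, Aldoc and Arhgap30, each on 1 list. The other 26 lists had 0 called members, and 14 of the 20 called genes were on no list. The median difference of 27 of the 32 lists lay within 0.1 of 0, beside -0.0007 over all genes.

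Among the 4 proinflammatory cytokine genes measured, only Il1b was called (median difference -0.011). Tnf, the gene of tumour necrosis factor, had ratios of 0.064, -0.017 and -0.059 at 2 h and 0.27, 0.17 and 0.22 at 6 h. The 6 h rats lay above the 2 h rats, but the difference of 0.22 ± 0.049 (SE) had an adjusted p of 0.107. Ltb (lymphotoxin beta) differed by 0.030 and Mif (macrophage migration inhibitory factor) by -0.053. Of 9 chemokine genes 0 were called, with a median of -0.034 and 3 lower at an unadjusted p under 0.05, beside 7.11% lower over all genes. Ccl5, made by T and natural killer cells, was below the pool in all rats, at a mean of -0.67 at 2 h and -1.07 at 6 h (adjusted p = 0.28).

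Of 9 chemokine and cytokine receptor genes and 9 anti-inflammatory and feedback genes 0 were called. Il1r2, the decoy receptor that binds interleukin-1 without signalling, had ratios of 0.73, 0.59 and 0.55 at 2 h and 0.69, 0.51 and 0.98 at 6 h. The times overlapped, beside the fall of Il1b, and the difference was 0.10 ± 0.12 (SE, adjusted p = 0.751). Anxa1, the gene of the glucocorticoid-induced anti-inflammatory protein annexin A1, was at 3.17, 2.78 and 2.02 at 2 h and at 2.65, 1.50 and 1.68 at 6 h. Those rats overlapped too (adjusted p = 0.446). Of 9 genes of NF-kappaB, AP-1 and C/EBP factors 0 were called. Fosl2, an AP-1 subunit gene, had ratios of 1.31, 0.95 and 0.73 at 2 h and 0.55, 0.30 and 0.19 at 6 h. The times did not overlap, and the difference of -0.66 ± 0.16 (SE) had an adjusted p of 0.118. Of 10 genes of LPS recognition and signalling 0 were called (median -0.059), and of 9 genes of eicosanoid, arginine and nitric oxide enzymes 0 were called (median 0.074).

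Of the interferon-stimulated genes 12 were measured. Of these, 1 was called (Gbp2), 9 lay above 0 and the median difference was 0.306. At an unadjusted p under 0.05 there were 6 higher and 0 lower, beside 7.34% higher over all genes. The median of the list within a rat ran from -0.041 to 0.101 at 2 h and from 0.243 to 0.362 at 6 h, so the rats of the times did not overlap. Its median difference was 0.363 on the fluor arrays, with 3 of 12 below 0, and 0.241 on the flip arrays, with 5 below 0. Under the 3 other scalings and centrings it ran from 0.259 to 0.337. With the flip arrays' sign turned it was 0.091. Ifitm3, which blocks virus entry, had ratios of 0.47, 0.39 and 0.36 at 2 h and 0.82, 0.65 and 0.85 at 6 h. All 6 h rats were higher (difference 0.37 ± 0.063, SE, adjusted p = 0.0594). Mx2 differed by 0.49 with a wide spread (adjusted p = 0.514). Rsad2, the gene of viperin, was at a mean of 0.80 at 2 h and 0.45 at 6 h (adjusted p = 0.507).

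The genes of MHC class I and the immunoproteasome, through which peptides reach cytotoxic T cells, had 0 calls of 8, with a median of 0.149. At an unadjusted p under 0.05, 3 were higher and 0 lower, beside 7.34% higher over all genes. On the fluor arrays the median was 0.354 with 1 of 8 below 0, and on the flip arrays it was 0.079 with 4 below 0. B2m and Psmb9 are on the interferon list too, and both count among the higher genes of each list. The probes of B2m had unlike differences, 0.62 and 0.14. Psmb9, an interferon-induced proteasome subunit gene, had ratios of -0.072, -0.49 and 0.023 at 2 h and 0.47, 0.39 and 0.24 at 6 h. The times did not overlap, but the difference of 0.55 ± 0.14 (SE) had an adjusted p of 0.128. RT1-A1, a rat class I heavy chain gene, was at a mean of -0.15 at 2 h and 0.36 at 6 h (adjusted p = 0.243). Whether its probe also bound near-identical class I genes was not tested. The class II genes RT1-Db1, RT1-DMb and RT1-Ba were below the pool at both times, at 2 h means of -0.82, -0.81 and -0.61 and 6 h means of -0.70, -0.74 and -0.85. Of the 5 genes of class II presentation 0 were called.

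**Figure D4:**
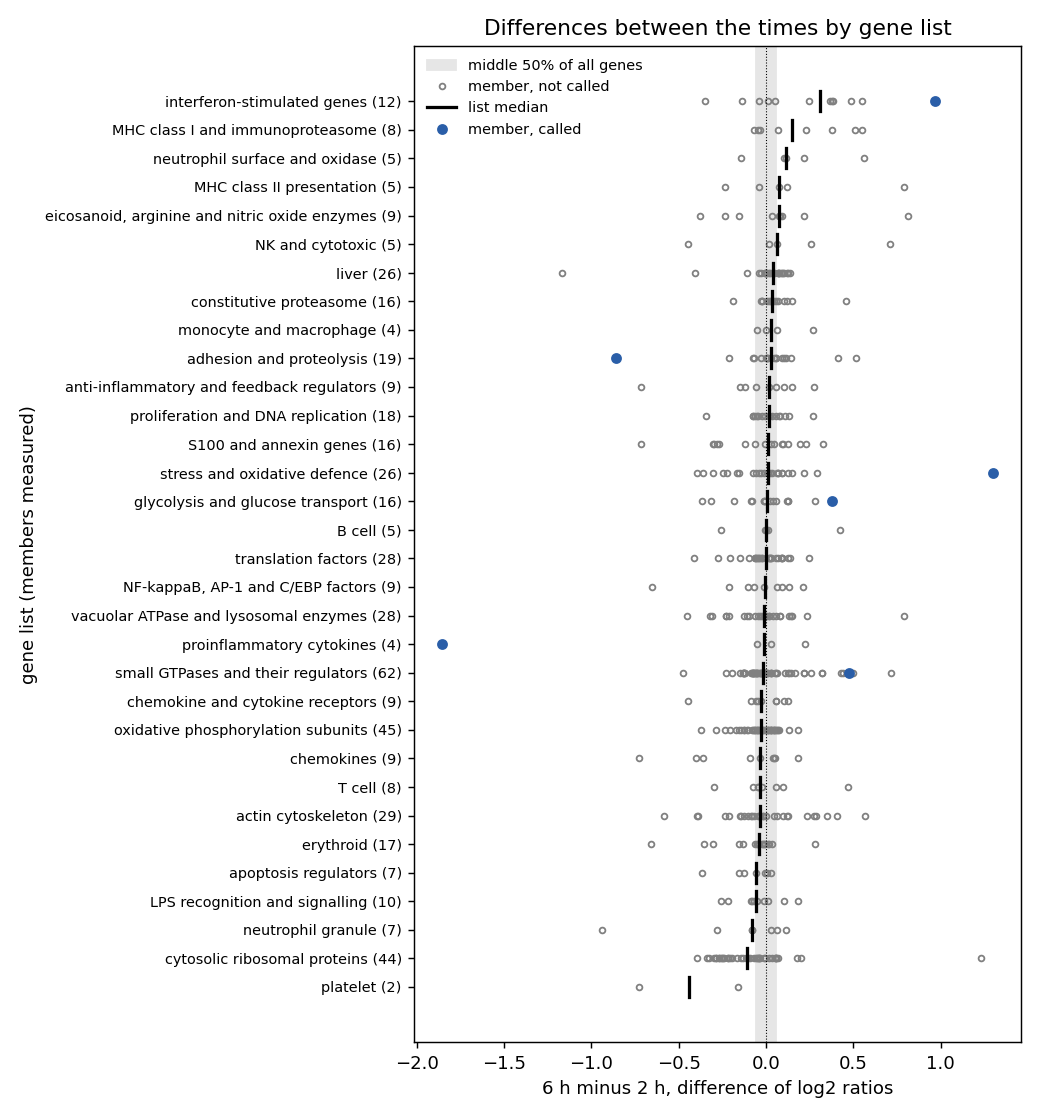
The 6 h minus 2 h difference of the log2 ratio (horizontal axis) for the measured members of 32 gene lists, 1 circle per gene, with the number of members in brackets. Thick bars are list medians, filled points the 6 called genes, and the grey band the middle 50% of all 3939 genes. As deposited, the median is 0.306 for interferon-stimulated genes and -0.443 for the 2 platelet genes. With the flip arrays' sign turned these are 0.091 and 0.012.

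The lists of glycolysis, oxidative defence and adhesion held 1 call each. Of 16 genes of glycolysis and glucose transport Aldoc was called, and the list's median was 0.007. Slc2a1, the glucose transporter gene GLUT1, had ratios of 0.15, 0.11 and 0.15 at 2 h and 0.48, 0.39 and 0.38 at 6 h. All 6 h rats were higher (difference 0.28 ± 0.044, SE, adjusted p = 0.0559). Slc2a3, the transporter gene GLUT3, was at a mean of 0.78 at 2 h and 0.46 at 6 h (adjusted p = 0.461). Of 26 genes of stress and oxidative defence Prdx5 was called, with a list median of 0.011. Gpx1, the gene of glutathione peroxidase 1, was at a mean of 0.46 at 2 h and 0.099 at 6 h (adjusted p = 0.199). Of 19 genes of adhesion and proteolysis Timp2 was called lower. Timp1, the related inhibitor gene, was at 0.22 at 2 h and 0.24 at 6 h (adjusted p = 0.885). Bcl2l1, the gene of the survival protein Bcl-xL on the list of 7 apoptosis regulators, was at 0.44 at 2 h and 0.075 at 6 h (adjusted p = 0.0807).

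The 44 genes of cytosolic ribosomal proteins were mostly below the pool, with a list median of -0.327 at 2 h and -0.371 at 6 h. Their median difference was -0.108, 34 of 44 lay below 0, and 0 were called, while 49.7% of all genes lay above 0. At an unadjusted p under 0.05, 1 was higher and 11 lower, beside 7.11% lower over all genes. The orientations differed. On the flip arrays the median was -0.227 with 38 of 44 below 0, and on the fluor arrays it was -0.011 with 25 below 0, beside -0.0118 and 0.0086 for all genes. With the flip arrays' sign turned the median was 0.106. Rps3 had ratios of -0.67, -0.61 and -0.62 at 2 h and -0.90, -1.05 and -0.82 at 6 h (difference -0.29 ± 0.064, SE, adjusted p = 0.107). That difference was -0.52 on the flip and -0.060 on the fluor arrays. Of 28 genes of translation factors, 45 of oxidative phosphorylation subunits, 16 of the constitutive proteasome and 28 of vacuolar ATPase and lysosomal enzymes 0 were called, with medians from -0.030 to 0.032.

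Markers of the blood cell types gave 0 calls. Ratios to a pool hold no levels, so the label of blood could not be checked by them. Of the markers of neutrophils, S100a9 (calprotectin) was high in all rats, at 3.40, 3.16 and 2.38 at 2 h and 3.15, 2.27 and 2.69 at 6 h. The times overlapped (difference -0.28 ± 0.30, SE, adjusted p = 0.735). Chi3l1, a chitinase-like protein of specific granules, was at 0.85, 0.50 and 0.37 at 2 h and at -0.090, -0.49 and -0.52 at 6 h. Its rats did not overlap, and the difference of -0.94 ± 0.15 (SE) had an adjusted p of 0.0594. Lcn2, another granule gene, was at a mean of 0.69 at 2 h and 0.61 at 6 h (adjusted p = 0.855). Srgn, the gene of the granule proteoglycan serglycin, was at 0.70 and 1.27 (adjusted p = 0.0807). It is on a separate list of 5 neutrophil surface and oxidase genes, 4 of them above 0, with a median difference of 0.112. The median difference of the 7 granule genes was -0.079, but 0.028 after quantile normalization.

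Of the T cell, B cell and cytotoxic cell markers 0 were called. Cd3d, of the T cell receptor complex, had ratios of -0.47, -0.44 and -0.27 at 2 h and -0.52, -0.66 and -0.88 at 6 h. All 6 h rats were lower (difference -0.30 ± 0.10, SE, adjusted p = 0.246). Cd37, a B cell tetraspanin gene, was at a mean of -0.45 at 2 h and -0.71 at 6 h (adjusted p = 0.0847). Cd24, a surface protein gene on the same list, had a difference of 0.42 (adjusted p = 0.278). The list medians were -0.035 for 8 T cell genes and -0.001 for 5 B cell genes. Of 5 genes of natural killer and cytotoxic cells, Gzmc (a granzyme) was at 1.13, 1.31 and 1.05 at 2 h and 1.64, 2.14 and 1.84 at 6 h. The rats did not overlap (difference 0.71 ± 0.13, SE, adjusted p = 0.0712). Prf1 (perforin) was at a mean of 0.0095 at 2 h and 0.27 at 6 h (adjusted p = 0.0847). Il2rb, a receptor chain for interleukins 2 and 15, went the other way, from 0.42 to -0.033 (adjusted p = 0.0736). Of 4 monocyte and macrophage genes Fcgr2b had the largest difference, 0.27 ± 0.056 (SE, adjusted p = 0.0866).

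Of the red cell and platelet genes 0 were called. Of 17 erythroid genes 13 had a difference below 0, with a median of -0.040, while 49.7% of all genes lay above 0. On the fluor arrays 10 lay below 0 (median -0.013) and on the flip arrays 15 (median -0.093). With the flip arrays' sign turned the median was 0.059. Slc4a1, the band 3 anion exchanger gene, had ratios of 0.58, 0.85 and 1.00 at 2 h and 0.22, 0.43 and -0.21 at 6 h. The times did not overlap (difference -0.66 ± 0.17, SE, adjusted p = 0.152). Alas2, the first enzyme of haem synthesis in red cells, was at a mean of 0.46 at 2 h and 0.30 at 6 h (adjusted p = 0.651). Pf4, the platelet chemokine gene, had ratios of 0.57, 0.37 and 0.074 at 2 h and -0.79, -0.14 and -0.24 at 6 h. All 2 h rats lay above 0 and all 6 h rats below it (difference -0.73 ± 0.19, SE, adjusted p = 0.153). Of 26 genes of the liver list Tf (transferrin) stood apart, at 1.50, 1.82 and 1.01 at 2 h and 0.51, 0.15 and 0.16 at 6 h (difference -1.17 ± 0.20, SE, adjusted p = 0.0594). Hpx (haemopexin) was next on that list, with a difference of -0.40. Most liver genes went the other way, with 18 of 26 above 0, 8 below 0 and a median difference of 0.041. By orientation that median was -0.012 (fluor) and 0.059 (flip), and it was -0.029 with the flip arrays' sign turned. The part of cell makeup in the 20 calls was not tested.

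Some genes outside the naming rule had large differences that missed the threshold, and they were chosen here after their values were seen. Pals1, a cell polarity gene, was at -0.22, -0.64 and -0.68 at 2 h and 0.40, 0.20 and 0.44 at 6 h (difference 0.86 ± 0.13, SE, adjusted p = 0.0512). Oplah (5-oxoprolinase, of the glutathione cycle) was at a mean of -0.31 at 2 h and -1.23 at 6 h (adjusted p = 0.072). Klf10, a gene induced by TGF-beta, was at -0.39 and 0.21 (adjusted p = 0.0712). Tdo2, the enzyme that opens the ring of tryptophan, was at 0.31 and 0.84 (adjusted p = 0.0828). All 4 were picked from genes whose rats of the times did not overlap, so that pattern adds nothing here. It was held by 853 of the 3939 genes (21.7%).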

How the data were processed

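Total RNA of 6 rats given LPS was measured against 2 control pools on 12 two-colour arrays. The values the authors deposited are log2 ratios, 1 for each probe on each array. Base 2 was read from the values: raised to it, 100% of ratios under 5 fell on steps of 1e-04, within 0.05 of a step. Not given in the sources used here are the scanner and how background and dyes were normalized. No intensities were used, so signal over background is unknown, and the number of arrays limits the precision.

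Probe names come from GEO's platform annotation, brought up to date by gene ID with the RefSeq table of GRCr8 (4184 of 4190 probes with 1 symbol matched). Of the 7200 probes 46 had several symbols and 2964 had none, and these were not named. Of the 3939 genes 236 had several probes, which were averaged. A rat's 2 arrays were averaged, and lmFit and eBayes of limma 3.58.1 in R 4.3.3 were run on the 6 rats, with 4 residual degrees of freedom, without a replicate block. The contrasts were 6 h minus 2 h, and each time against 0, which leaves out the spread of the pool. A called gene was named in the text where its rats did not overlap and its sign was the same on both orientations, up to 15 genes in each direction. Beyond these, called list members and at most 4 uncalled members of a list, those of the highest mean absolute ratio, could be named. The members, lists, motifs and tests were chosen with earlier results of these data known. Alternatives changed the orientation, scale, centring, weights, prior, repeated values, layout, probe choice and rats.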

Additional observations from a re-analysis of the deposited data

Results flagged for a closer look

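The results below are the 20 genes whose response to LPS differed between the times by the test of the difference itself (limma, adjusted p under 0.05). Values are 6 h minus 2 h differences of the log2 ratio. Those below 0 were Il1b at -1.86, Spink1l at -1.65, Snx12 at -1.10, Timp2 at -0.86, Tsc22d1 at -0.76, Rcn1 at -0.48 and Gprc5a at -0.33. Those above 0 were Prdx5 at 1.30, Gbp2 at 0.97, Ywhae at 0.85, AKR1C3l1 at 0.68, Rpp30 at 0.55, Car4 at 0.49 and Arhgap30 at 0.47. The rest above 0 were Ap2s1 at 0.46, Tmbim4 at 0.42, Prl8a2 at 0.40, Aldoc at 0.38, Herc6 at 0.37 and Ybx1 at 0.35. By the signs and sizes of their group means alone, 11 of these lay on the other side of 0 at 6 h, 6 farther from 0 and 3 nearer to it. Some of the 11 were close to 0 at 6 h. The 6 h mean was -0.043 for Rcn1 and 0.0097 for Prl8a2, with adjusted p against 0 (limma) of 0.473 and 0.878.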

How the results depend on the processing

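The count of 20 called genes became 4 with the fluor arrays alone (all among the 20) and 5 with the flip arrays alone (1 among the 20). After quantile normalization it was 8 (6 among the 20). It became 33 with a trended robust prior (16 of them among the 20), 90 with array weights (all 20 among them) and 131 with the rat as a random block over 12 arrays (19 among them, 64 higher and 67 lower). Scaling, centring, neighbour subtraction, probe choice and leaving out repeated values gave 14, 19, 16, 23 and 25. Of these 7, 18, 14, 19 and 19 were among the 20. With scaling Il1b, Spink1l, Snx12, Timp2 and Prdx5 were among the genes no longer called. Leaving out 1 rat gave 2 to 31 genes. The 15 called probes became 4 to 154 without 1 rat, and 2 (fluor), 8 (flip), 2 (scaled), 5 (quantile), 292 (random block), 42 (weights) and 34 (repeated values left out). With the flip arrays multiplied by -1, 0 genes and 0 probes were called, with 484 genes and 838 probes at an unadjusted limma p under 0.05. In that setting 7 of the 20 took the other sign: Spink1l 0.170, Rcn1 0.012, Gprc5a 0.244, Herc6 -0.002, Car4 -0.015, Ywhae -0.060 and Gbp2 -0.151. The causes were not tested. In the other settings all 20 kept their direction, Ap2s1 being absent where repeated values were left out. Of the 32 list medians 15 moved by over the rats' spread with the turned flip arrays (interferon-stimulated genes 0.091) and 5 with quantile normalization. No paired analysis was possible because the times share only the rat number 2. With ratios alone, signal over background was not known.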

Other observations

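Over all 7200 probes 15 were called between the times (0.208%), 8 higher and 7 lower at 6 h, and 4 of them have no single symbol and stay unnamed. Probe 5311 had rat ratios of 0.035, 0.0029 and 0.056 at 2 h and -1.10, -1.05 and -0.91 at 6 h, so it lay at the pool at 2 h and well below it at 6 h. Probe 5179 was at 0.026, 0.058 and -0.033 at 2 h and 1.25, 0.99 and 1.08 at 6 h, the mirror course. Ctsc, the gene of the granule-protease activator cathepsin C, has 2 probes. One was called lower (difference -0.48, adjusted p over probes 0.0203) and the other was not (-0.14, adjusted p 0.502). Over the 344 probes with a repeated value the median difference was 0.43, and 1 was called. It is probe 7043, counted above among the higher and unnamed probes, and its difference of 0.68 was not read as a change. The repeated value itself differed between arrays. It was -0.41 (fluor) and -0.22 (flip) for 2 h rat 1, and 0.0037 (fluor) and 0.53 (flip) for 6 h rat 2. Its part in the 0.43 was not tested.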
